A study of Homo sapiens with 2 samples.

Results

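The 10 genes examined here encode cytokines, an enzyme and receptors of type 2 immunity, which is shared by group 2 innate lymphoid cells (ILC2) and T-helper type 2 (TH2) cells: IL4, IL5, IL9, IL13, AREG, HPGD, PTGDR2, IL1RL1, IL17RB and CRLF2. They were chosen by this known function. A probe set, which is a group of probes on the array that read the same transcript, was taken when the annotation of the Affymetrix HG-U133 Plus 2.0 array paired it with 1 of these symbols and no other gene. This gave 18 probe sets for 8 of the 10 genes, out of 19775 genes on the array with a probe set of their own, while IL9 and AREG had none in this annotation and were not analysed here. Expression was measured on 2 arrays in SU-DHL-1, a T-lineage lymphoma line established from anaplastic large cell lymphoma (ALCL) and positive for NPM1-ALK. The group siCTR was treated with a negative control siRNA and the group siHLX with siRNA that targets HLX, an NKL homeobox gene, both delivered by electroporation, with 1 array per group. There were no replicates, so no test between the groups could be made, each difference is siHLX minus siCTR on the log2 scale, and the number of arrays limits the precision.

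ILC2 and TH2 cells answer alarm signals from barrier tissues. The alarmins IL33, IL25 and TSLP bind to receptors that contain IL1RL1, IL17RB and CRLF2, and prostaglandin D2 attracts the cells through PTGDR2. The transcription factor GATA3 then drives the cytokine genes IL4, IL5 and IL13, which lie together in the genome. HPGD inactivates prostaglandins, and AREG is a growth factor for tissue repair. HLX, the target of the siRNA, is known from TH1 cells, where it acts together with TBX21 on the IFNG gene, and the arrays were made to find genes that depend on HLX in ALCL.

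HLX itself, on its single probe set, read 8.15 (siCTR) and 7.70 (siHLX), differing by -0.45, which is 0.732 times the siCTR level. Of the single-gene probe sets no more than 0.5 log2 units away in level, 3.93% were at least as far from 0. In the same direction it was 1.59%. The arrays correlated with r = 0.989 over 54613 probe sets, which are not replicates. Each difference is read against the bulk of genes. Among the 12135 genes with a mean level at or above the median of all probe sets, 4.865 (the level threshold), the median difference was -0.01, with 47.4% of genes higher and 50.1% lower. Spiked poly-A controls, added before labelling, differed by a mean of -0.29 (SD 0.18, 24 probe sets). Scaling both arrays to these controls moved the median of all genes to 0.28 and added 0.29 to each difference, that of HLX included. The part of this shift in the results was not tested.

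Of the 8 genes, 3 were detectable in SU-DHL-1, and they encode receptors: IL1RL1, IL17RB and PTGDR2. The other 5, which include the measured cytokine genes IL4, IL5 and IL13 together with HPGD and CRLF2, were not above the limit on either array. The limit was set from a panel of 191 probe sets of 154 genes taken by symbol as genes of smell, bitter taste and hair. These were olfactory receptor, TAS2R and KRTAP symbols, of genes that lymphoma cells are not known to use. Pseudogenes of olfactory receptors and the antisense RNA KRTAP5-AS1 carry such symbols too and were kept. The limit was the 95th percentile of the panel, 5.725 with siCTR and 5.60 with siHLX, and a probe set had to exceed it on both arrays. Some pseudogenes read above the limit and thus helped to raise it, such as OR7E37P with 8.57 on siCTR and 8.56 on siHLX. The limit without them was not computed. Of all single-gene probe sets 41.7% passed, of the panel itself 4.19%, and of the probe sets of the 8 genes 7 of 18, near the share of all. These shares count probe sets and not genes. The share of all genes that were detectable was not computed, so the counts of detectable genes here and below have no matching background. At the 99th percentile of the panel PTGDR2 was lost, and IL1RL1 and IL17RB stayed above. A level below the limit does not show that a transcript was absent.

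**Figure D1:**
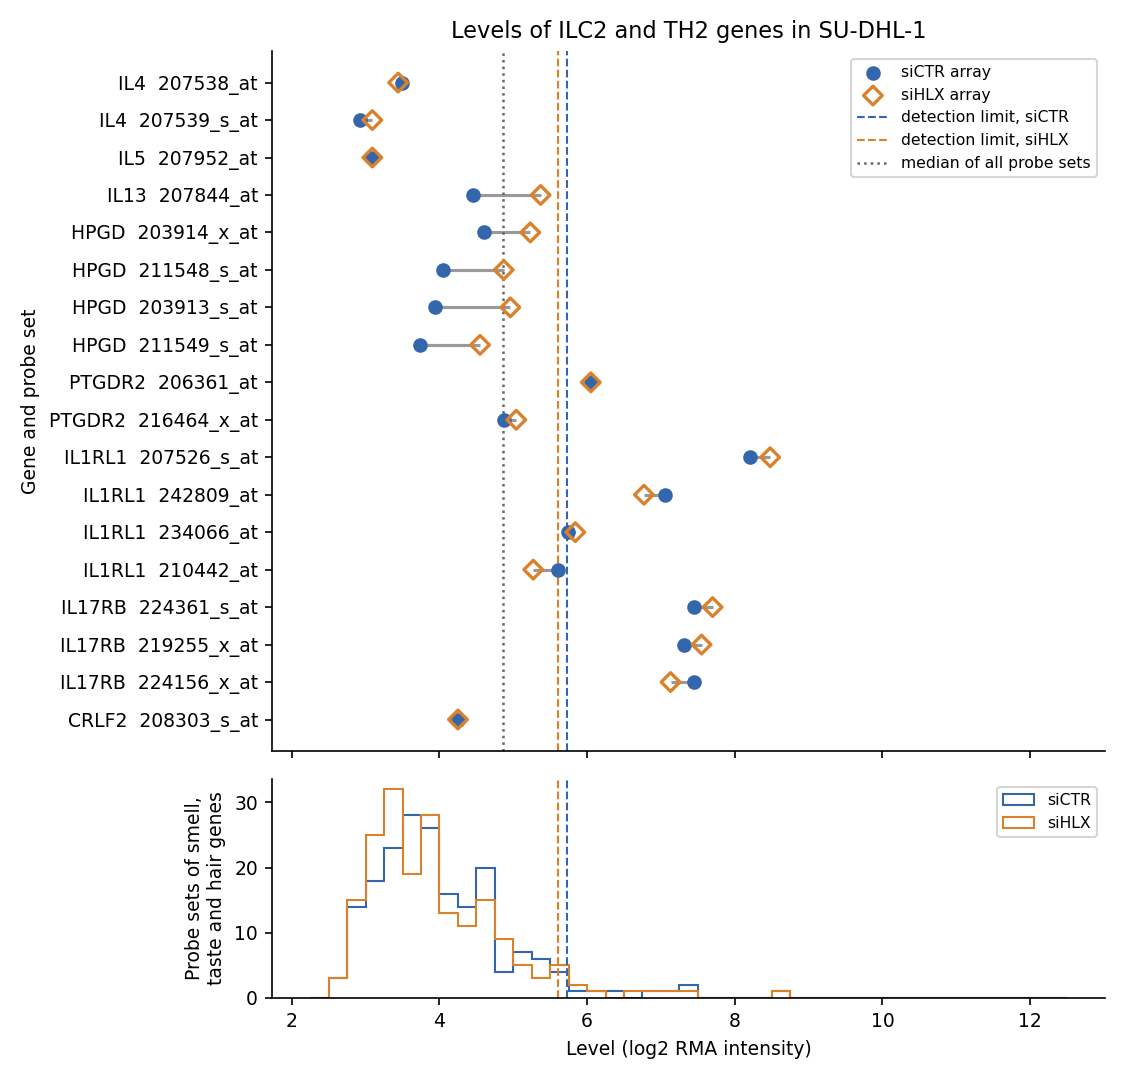
Levels of the 18 probe sets (y axis, upper panel) on the siCTR array (filled circles) and the siHLX array (open diamonds), in log2 RMA intensity (x axis), and the number of panel probe sets of smell, taste and hair genes at each level (lower panel). Dashed lines are the detection limits of 5.725 and 5.60 and the dotted line is the median of 4.865; the 3 probe sets of IL17RB and 3 of the 4 of IL1RL1 lie to the right of the limits, while those of HPGD and IL13 lie to the left on both arrays.

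IL1RL1, which encodes the IL33 receptor chain ST2 and, from a shorter transcript, a soluble decoy of it, was read by 4 probe sets that did not move together. Its brightest, 207526_s_at, gave 8.20 with siCTR and 8.48 with siHLX, which differ by 0.28. Single-gene probe sets no more than 0.5 log2 units away in level (like-level probe sets) numbered 3509, and 13.9% of them were at least as far from 0. Probe set 242809_at went the other way, from 7.05 to 6.77, a difference of -0.28 (0.01 when scaled to the poly-A controls), and 28.1% of its like-level probe sets were as far from 0. Both readings were thus well above the limit and opposite in sign relative to the bulk of genes. Probe set 234066_at read 5.74 and 5.84, only 0.015 above the limit on the siCTR array, and 210442_at read 5.60 and 5.27, below it on both. Over the 4 probe sets the mean difference was -0.06 (SD 0.30), a spread between readings of the same RNA, and IL1RL1 gave no common direction. The annotation used here does not say which transcript form each probe set reads.

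IL17RB, the receptor chain that binds IL25, was above the limit on each of its 3 probe sets. Probe set 224361_s_at read 7.45 with siCTR and 7.70 with siHLX, differing by 0.25. Probe set 219255_x_at gave 7.31 and 7.55, a difference of 0.24. The third, 224156_x_at, did not share this direction, with 7.45 and 7.13, a difference of -0.32. Among like-level probe sets, 17.8% to 28.4% were as far from 0, and the mean over the 3 was 0.06 (SD 0.33). The suffixes _s_at and _x_at mark probe sets whose probes can match further transcripts, and IL17RB had no other kind. CRLF2, the TSLP receptor chain, read 4.25 on both arrays, a difference of 0.

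The chains with which these receptors pair were measured too. IL1RAP, the partner of IL1RL1, read 10.60 with siCTR and 10.68 with siHLX on its brightest probe set, and 9.06 and 9.64 on the other, differences of 0.08 and 0.58. IL17RA, the partner of IL17RB, read 8.21 and 8.38, and its 4 probe sets differed by -0.06 to 0.46. IL7R, the partner of CRLF2, was below the limit at 4.74 and 4.78. The 2 partners that passed the limit therefore belong to the 2 detectable alarmin receptors, while the TSLP receptor was below the limit in both its chains. Of the alarmins themselves, IL33 read 2.64 and 2.68, TSLP 2.68 on both arrays, and IL25 4.55 and 4.87, below the limit throughout.

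PTGDR2, the receptor for prostaglandin D2 also called CRTH2, read 6.05 on both arrays with probe set 206361_at, a difference of 0. Its other probe set, 216464_x_at, gave 4.87 with siCTR and 5.04 with siHLX, below the limit. Of the enzymes that make the ligand, HPGDS read 3.94 and 4.25, below the limit. PTGDS read 5.63 and 5.37 on its brightest probe set, below the limit, and 5.87 and 5.12 on the next brightest, above the limit on the siCTR array alone. The second receptor, PTGDR, was below it at 3.64 and 3.41.

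HPGD, the enzyme that oxidises and thereby inactivates prostaglandins, was higher on the siHLX array with each of its 4 probe sets, though none passed the detection limit. Probe set 203913_s_at read 3.94 with siCTR and 4.96 with siHLX, differing by 1.02. Probe set 211548_s_at gave 4.05 and 4.87, a difference of 0.82, and 211549_s_at gave 3.74 and 4.55, a difference of 0.81. The brightest, 203914_x_at, gave 4.60 and 5.23, a difference of 0.63. The mean was 0.82 (SD 0.16 between probe sets), which is 1.77 times the siCTR level. Taken one at a time these readings were not rare for their level, since 3.61% to 19.4% of like-level probe sets were as far from 0, where the SD of the difference was 0.46 to 0.48. Taken as a gene, HPGD had the highest mean difference among 2728 genes that had 4 or more probe sets, and it was the single gene (0.0367%) with at least 1.5-fold higher readings on each of them. A higher reading of any size on each probe set was given by 115 of these genes (4.22%). The rank and the 1.5-fold count were made for higher readings only, the direction in which HPGD had been seen to differ. Neither was made for lower readings, so they do not give the rarity of a shift in any direction. The 2728 genes were of all levels, and the spread of differences depended on level. The SD among like-level probe sets was 0.27 for an IL4 probe set at 3.005 and 0.19 for the brightest of IL1RL1, both below that for HPGD. In 575 of them the brightest probe set was dimmer than that of HPGD or less than 0.5 log2 units above it. This had no lower bound, so the 575 genes are not matched to HPGD in level. Of these 575, 13 (2.26%) were higher on each probe set and 28 were lower on each. The probe sets of a gene read the same RNA on the same arrays and their probes may overlap, so they are not replicates, and this view of HPGD was chosen after its values had been seen.

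**Figure D2:**
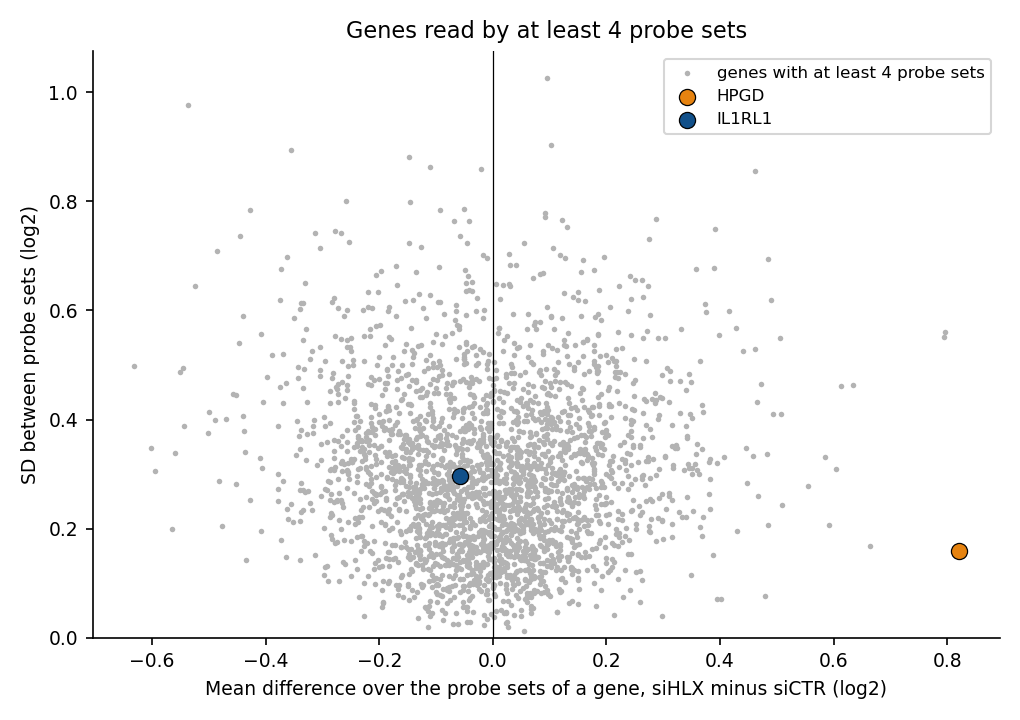
Mean log2 difference, siHLX minus siCTR, over the probe sets of a gene (x axis) against the SD between them (y axis, log2), with 1 point for each of the 2728 genes that had 4 or more probe sets. HPGD lies farthest to the right at 0.82 with an SD of 0.16, and IL1RL1 lies near 0 at -0.06 with an SD of 0.30.

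Further genes of prostaglandin handling differed in both directions. Of 18 genes in this group, 11 lay above the level threshold, 9 of them higher and 2 lower. Among all genes above it, 47.4% were higher and 50.1% lower. The median of the 11 was 0.06 (0.35 when scaled to the poly-A controls), and that of the 18 at any level was 0.07. PTGER3 and PTGR2, both among the 9, passed the threshold only through the siHLX array. PTGER3, a receptor for prostaglandin E2, was the most positive with 4.50 and 5.63 on its brightest probe set, a difference of 1.13, but its 10 probe sets ranged from -0.45 to 1.13. PTGDS was the most negative at -0.26. The reductases that act after HPGD were mixed, with PTGR2 at 4.69 and 5.63 and PTGR1 at 3.94 and 3.54, PTGR2 above the limit on the siHLX array alone and PTGR1 below it, and both were named after their values had been seen.

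IL13 was brighter than the cytokine genes IL4 and IL5 and had a larger difference. It had 1 probe set, 207844_at, which read 4.45 with siCTR and 5.37 with siHLX, differing by 0.92, which is 1.89 times the siCTR level. On the siHLX array it exceeded 93.2% of the panel of smell, taste and hair genes, against 73.8% on the siCTR array, and remained below the limit on both. Its like-level probe sets numbered 6543, of which 5.76% were as far from 0 and 2.89% as far in the same direction. IL4, the cytokine of TH2 differentiation, read 3.49 and 3.44 on 1 probe set, a difference of -0.05, and 2.92 and 3.09 on the other, a difference of 0.17. IL5, the eosinophil growth factor, read 3.09 on both arrays. IL4 and IL5 thus lay in the lower part of the panel, above at most 34.0% of its probe sets, and gave no reading of a change.

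In the reference assembly GRCh38.p14 these cytokine genes lie on chromosome 5 in the order IL5, RAD50, IL13, IL4 and KIF3A. The neighbours that are not cytokines were detectable. RAD50, a DNA repair gene, read 9.50 and 9.53, and KIF3A, a motor protein gene, read 9.10 and 9.09. With IRF1, SEPTIN8, SLC22A5 and SLC22A4 of the same region, 6 of 6 neighbours were above the limit, 1 higher and 5 lower, with a median of -0.08 that became 0.21 when scaled to the poly-A controls. The most negative was SLC22A4, a carnitine and ergothioneine transporter gene, at -0.34. Over all probe sets of these neighbours the differences ran from -0.34 to 0.33, against 0.92 for IL13. The 0.33 was read below the limit, on a probe set of SLC22A5 at 4.45 and 4.78. Most neighbour readings were brighter than IL13, and differences spread less at such brighter levels. The SD among like-level probe sets was 0.48 for IL13 and 0.21 at the brighter level of HLX, so these values are not alike.

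Upstream sequences of 4 of the 10 genes are shown because GATA3 acts on type 2 genes and HLX binds DNA through a homeodomain. They are the 250 bases before an annotated start, from RefSeq on GRCh38.p14, read 5′ to 3′ on the strand of the gene. Capitals mark a GATA motif (AGATAA or AGATAG or TGATAA or TGATAG) or a homeobox core (TAATTA or TAATTG), searched on both strands. The first shown is IL13, which had the largest difference of the 3 measured cytokine genes among the 10, at its downstream start (chr5:132657923-132658172, plus strand). The next is its neighbour IL4 (chr5:132673739-132673988, plus strand). HPGD is shown at its downstream start (chr4:174522489-174522738, minus strand) and IL1RL1 at its upstream start (chr2:102311313-102311562, plus strand) and downstream start (chr2:102337007-102337256, plus strand).
IL13: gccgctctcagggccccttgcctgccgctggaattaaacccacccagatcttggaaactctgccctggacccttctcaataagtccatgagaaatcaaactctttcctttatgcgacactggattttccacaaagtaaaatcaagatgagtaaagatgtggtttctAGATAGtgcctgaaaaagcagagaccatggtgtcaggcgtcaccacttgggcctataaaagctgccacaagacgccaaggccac
IL4: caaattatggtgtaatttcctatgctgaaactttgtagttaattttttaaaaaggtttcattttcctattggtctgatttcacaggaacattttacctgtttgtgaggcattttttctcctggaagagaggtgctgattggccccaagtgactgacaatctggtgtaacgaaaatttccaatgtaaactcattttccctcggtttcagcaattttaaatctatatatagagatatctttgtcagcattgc
HPGD: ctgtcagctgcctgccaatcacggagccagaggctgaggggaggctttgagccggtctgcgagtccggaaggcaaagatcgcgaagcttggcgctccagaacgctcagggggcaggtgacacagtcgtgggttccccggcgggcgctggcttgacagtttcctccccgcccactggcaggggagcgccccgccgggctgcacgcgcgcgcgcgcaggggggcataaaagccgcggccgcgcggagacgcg
IL1RL1 upstream start: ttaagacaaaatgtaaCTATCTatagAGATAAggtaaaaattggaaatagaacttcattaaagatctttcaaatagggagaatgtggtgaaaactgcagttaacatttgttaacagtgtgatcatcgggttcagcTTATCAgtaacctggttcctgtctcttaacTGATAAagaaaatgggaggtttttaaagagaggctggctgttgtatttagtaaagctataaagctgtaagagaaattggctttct
IL1RL1 downstream start: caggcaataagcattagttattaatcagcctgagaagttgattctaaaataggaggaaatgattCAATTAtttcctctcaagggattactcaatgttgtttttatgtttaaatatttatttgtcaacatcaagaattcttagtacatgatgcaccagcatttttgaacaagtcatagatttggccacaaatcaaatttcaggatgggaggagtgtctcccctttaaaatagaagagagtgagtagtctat

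The GATA motif occurred in 22.3% of the 35116 windows of this length in the table. Windows were given for 7 of the 10 genes, 10 windows in all, and 3 of them held it. The downstream window of IL13 had AGATAG from 84 to 79 bases before the start, and its upstream window, not shown, had CTATCT from 51 to 46 bases before it. The upstream window of IL1RL1 had 4 GATA motifs, between 234 and 80 bases before the start, and the downstream window none. The homeobox core, found in 10.4% of all windows, occurred in 1 window, the downstream one of IL1RL1, as CAATTA from 186 to 181 bases before the start. Neither window of HPGD, and not that of IL4, held either motif. These matches describe letters within a short window and are not binding sites.

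Counted over the 18 probe sets, 11 were higher on the siHLX array, 4 lower and 3 equal, with a median of 0.17. At least 2-fold higher was 1 probe set, of HPGD, against 0.635% of the 41091 single-gene probe sets, and at least 2-fold lower were 0, against 0.696%. At least 1.5-fold higher were 5, the 4 of HPGD and that of IL13, against 4.65% of all, and at least 1.5-fold lower were 0, against 4.86%. These 5 of 18 came from 2 genes and from readings below the detection limit, at levels where differences spread widely. Among the detectable probe sets the differences ran from -0.32 to 0.28. Read by the brightest probe set alone and at any level, 4 of the 8 genes were higher, 1 lower and 3 equal, with a median of 0.125, beside a median of 0 with 46.7% higher and 49.8% lower among all 19775 genes. The 5 genes above the level threshold had a median of 0.28 (0.57 when scaled to the poly-A controls, 0 without _s_at and _x_at probe sets). Of these 5, IL13 and HPGD passed the threshold only through the siHLX array, so this median is a description that the threshold helped to set.

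**Figure D3:**
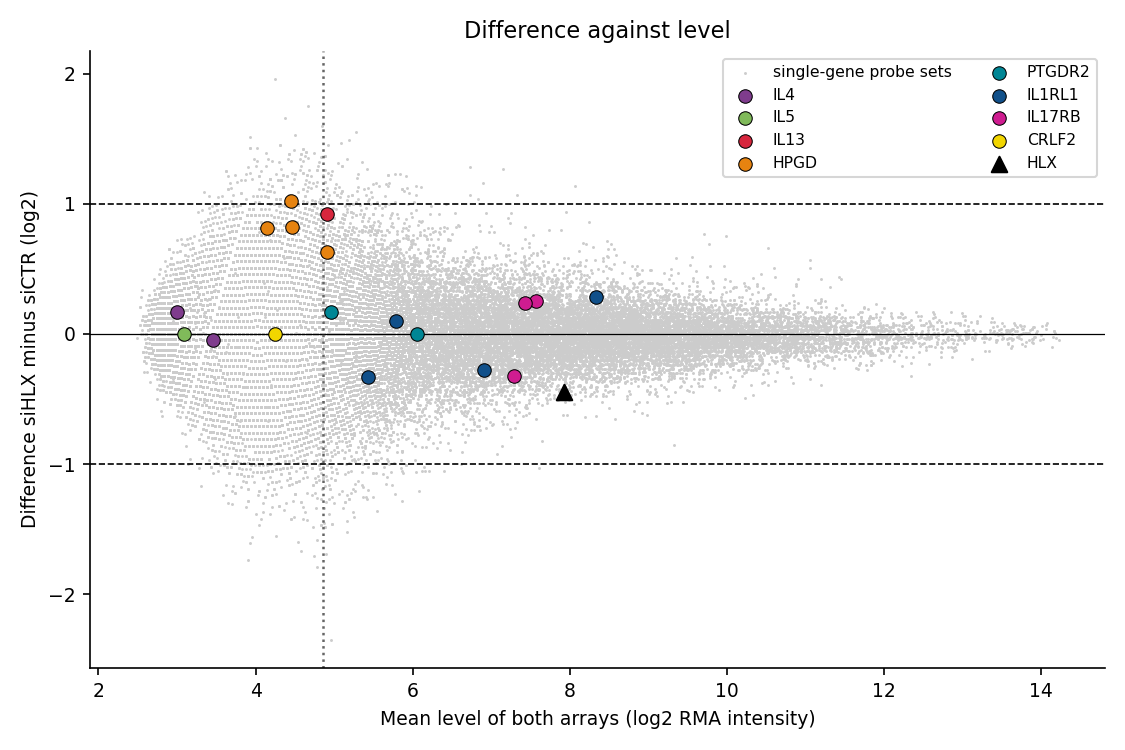
Log2 difference, siHLX minus siCTR (y axis), plotted over the level averaged across arrays (x axis, log2 RMA intensity). Each grey point is a single-gene probe set, with coloured points for the 18 probe sets and a triangle for HLX. Lines mark 2-fold (dashed) and the level threshold of 4.865 (dotted); the 4 points of HPGD and that of IL13 lie between 0.63 and 1.02 where the grey cloud is widest, and the detectable probe sets lie between -0.32 and 0.28.

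Further genes of the pathway were described from lists grouped by role. Of 108 such genes 102 had a probe set, and at any level 60 of these were higher, 37 lower and 5 equal, with a median of 0.04. At least 2-fold higher were 4 of the 102, IL15, PTGER3, EGFR and CCL17, against 0.683% of all genes, and at least 2-fold lower was 1, CCR4, against 0.708%. On the siCTR array each of the 5 was below the detection limit, and on the siHLX array IL15, PTGER3 and EGFR were above it and CCL17 and CCR4 below. Above the level threshold lay 60 genes, of which 6 passed it only through the siHLX array, IL15, PTGER3 and EGFR among them, and no 2-fold share is read from these 60. The background there was 0.453% higher and 0.387% lower. The 9 probe sets of EGFR ranged from -0.45 to 1.0. IL15, a growth cytokine of lymphocytes, read 4.35 and 5.82 on its brighter probe set and 3.36 and 4.05 on the other, differences of 1.47 and 0.69.

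Type 2 transcription factors were above the threshold in 14 cases, 11 of them higher and 3 lower, with a median of 0.09 (0.38 when scaled to the poly-A controls), beside 47.4% higher among all genes. On its brightest probe set GATA3 gave 9.04 with siCTR and 9.54 with siHLX, differing by 0.50, and the others, also above the limit, differed by 0.62 and 0.63. NFATC1, a factor of the antigen response, had 0.59 on its brightest probe set and -0.35 on the next brightest. LMO4 had -0.30 on its brightest probe set, and its 4 dimmer probe sets were higher by 0.10 to 0.83, 1 of them above the limit with 6.14 and 6.37. STAT6, which carries the IL4 signal, read 8.20 and 8.31. GATA3 was thus readable and higher on each probe set, whereas its cytokine targets were below the limit.

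Receptors through which type 2 cytokines act were partly readable. IL4R, shared by IL4 and IL13, read 9.32 and 9.33, and IL13RA1 read 8.13 and 8.33, while IL5RA, CSF2RB and IL13RA2 were below the limit. IL2RG, the common gamma chain, was below it at 4.20 and 5.08. In the gamma chain and JAK group 3 genes were higher and 3 lower, from JAK2 at -0.23 to IL9R at 0.26, with a median of -0.04 that became 0.25 when scaled to the poly-A controls. JAK2, a kinase of cytokine receptors, was lower on each of its 3 probe sets, none above the limit, and the second brightest read 5.12 and 4.10, a difference of -1.02. Alarmin receptor partners had a median of 0, between MYD88 at -0.13 and IL17RA at 0.17. In the EGF family, to which AREG belongs, 4 genes above the threshold were higher and 3 lower with a median of 0.02. EGFR and ERBB2, both among the 4, passed it only through the siHLX array, and at any level the median was 0.065. The most negative above the threshold was RHBDF2, a cofactor of shedding, at -0.33.

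Other products of type 2 cells were mostly below the limit. IL10 was the exception among the cytokines and chemokines of this group, with 9.15 and 9.07, and CCL22, a ligand of CCR4, read 5.0 and 5.16. CCL17, also a ligand of CCR4, went from 3.94 to 4.96, a difference of 1.02, below the limit and the level threshold. CCR4, a homing receptor of TH2 cells, went from 4.96 to 3.64, a difference of -1.32, likewise below both. Of 12 surface markers with a probe set, ICOS at 7.63 and 7.81 and LTB4R at 7.24 and 7.21 were detectable. Of the 5 above the threshold 4 were higher, with a median of 0.18, beside 47.4% higher among all genes above it. KLRG1 was the most positive at 0.26, though not above the limit, and LTB4R the most negative at -0.03. TNFRSF25, among the 4, passed the threshold only through the siHLX array. At any level the median of the 12 was 0.025.

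**Figure D4:**
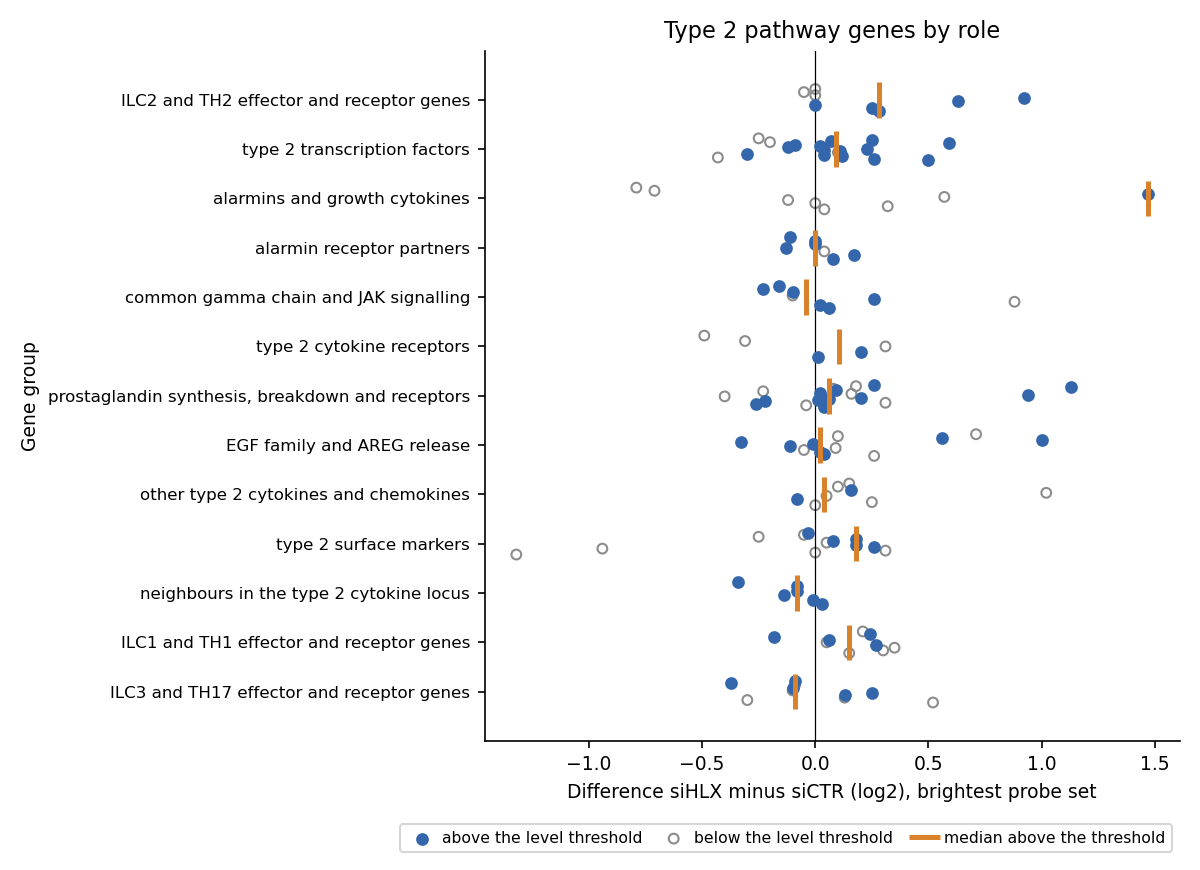
Log2 difference, siHLX minus siCTR (x axis), for each gene of 13 groups (y axis), read by its brightest probe set; filled points are genes above the level threshold, open points genes below it, and vertical bars the median of the filled points. The effector and receptor genes have their median at 0.28 (0.125 over filled and open points, 0.07 when each gene is the mean of its probe sets), the transcription factors at 0.09 and the neighbours in the cytokine locus at -0.08, relative to the bulk of genes; the last of these medians is above 0 when scaled to the poly-A controls and when each gene is the mean of its probe sets.

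Effector genes of the other lymphoid types were set beside these. Of the ILC1 and TH1 genes with a probe set, 3 of 9 were detectable, among them the IL18 receptor gene IL18R1 at 8.19 and 8.25, and IFNG was below the limit at 3.44 and 3.59. Of the ILC3 and TH17 genes 4 of 10 were detectable, among them the cytokine genes IL26, with 10.81 and 10.94, and CCL20, with 11.12 and 11.37, whereas IL17A and IL17F were below the limit. Their medians were 0.15 and -0.09, the latter 0.20 when scaled to the poly-A controls. Of the type 2 genes 3 of 8 were detectable. The share among all genes was not computed, so these counts do not show whether any type was detectable more often than genes in general. A difference between the types was not tested, as 1 array per group allows none.

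The labelled cell type was checked with markers. All 8 ALCL markers (TNFRSF8, ALK, GZMB, PRF1, IL2RA, MUC1, CLU and BATF3) were detectable, TNFRSF8, which encodes CD30, at 9.92 and 9.79. Mast cells, basophils and eosinophils also use several of the type 2 genes. Of 7 measured markers of these cells 0 were detectable, and their summed level on the log2 scale was 7.10 with siCTR and 7.24 with siHLX, with CPA3 at 3.89 and 3.41. Of myeloid markers 1 of 4 (CSF1R, 5.79 and 6.23) and of B-cell markers 1 of 3 (CD79A, 6.57 and 6.81) passed, with summed levels of 6.56 and 6.89 and of 7.23 and 7.33, and CD14 read 4.10 and 3.69. Of T-cell receptor markers 3 of 5 passed, CD3D at 10.73 and 10.98, CD3E at 5.87 and 5.68, and CD4 at 5.96 and 5.63. CD3E and CD4 lay close to the limit, and the other probe set of CD4 was below it at 3.44 and 3.04. The summed levels of 10.9 and 11.1 thus came mostly from CD3D. The part of other cell types in the readings of HPGD and IL13 was not tested.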

How the data were processed

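The authors deposited log2 intensities per probe set, to 2 decimals, for 2 Affymetrix HG-U133 Plus 2.0 arrays of SU-DHL-1 cells, 1 with siCTR and 1 with siHLX, grouped by the treatment in the labels. Their methods name RMA background correction and quantile normalisation with the R packages limma and affy, versions not given in the sources used here. Quantile normalisation gives each array the same distribution of values, and thereby hides any shift common to most transcripts. Depth does not apply to arrays.

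Probe sets paired with several genes (1801) or none (11721) were left out, and 41091 remained, of which 41037 were found in RefSeq by Entrez identifier. Their symbols needed no change. Differences were computed in Python 3.11.15 with pandas 2.3.3, and lowess curves with statsmodels 0.14.6. The 2-fold call was checked on simulated arrays with known, larger shifts under each normalisation setting. Their noise was smaller than the spread in the data at the levels of HPGD and IL13. The detection limit, the comparison over genes with many probe sets and the motif search were not checked in this way. A gene was read by its brightest probe set unless stated. No test was run, as each group had 1 array.

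Named were HLX, the 10 genes with every probe set, the most positive and most negative gene of each list above the level threshold, and GATA3, IL1RAP, IL17RA, IL7R, IL4R, IL2RG, STAT6, IL33, IL25, TSLP, HPGDS, PTGDS, PTGDR, CCR4 and RAD50 as partners, ligands or neighbours, with the cell type markers. Any other gene in the text was chosen after its values were seen. The genes, lists and settings were chosen with earlier results of these data known. Likeness to the pattern of other genes was not computed, since 2 arrays hold 1 difference.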

Additional observations from a re-analysis of the deposited data

How the results depend on the processing

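Over the 224 values recomputed under the alternatives, 187 moved by less than the SD between probe sets of a gene (0.27) or, for counts, by at most 1.5 times, and 37 moved more. Of these, 32 came from scaling to the poly-A controls, whose construction adds 0.29 to each difference. With it, the median of the 5 effector and receptor genes above the level threshold was 0.57 and 4 probe sets were at least 2-fold higher. The medians of the groups were then 0.38 (transcription factors), 1.76 (alarmins and growth cytokines, IL15 alone), 0.29 (alarmin receptor partners), 0.25 (gamma chain and JAK), 0.39 (type 2 cytokine receptors), 0.35 (prostaglandin genes), 0.31 (EGF family), 0.33 (other cytokines and chemokines), 0.47 (surface markers), 0.21 (locus neighbours), 0.44 (ILC1 and TH1) and 0.20 (ILC3 and TH17). Without a level threshold the alarmins had a median of 0.02 and the effector and receptor genes 0.125. With each gene as the mean of its probe sets, the median of the effector and receptor genes was 0.07, and the medians of 4 groups, all within 0.27 of the reported value, changed sign: gamma chain and JAK to 0.11, EGF family to -0.10, locus neighbours to 0.02, and ILC1 and TH1 to -0.04. Without _s_at and _x_at probe sets the effector and receptor genes above the threshold were IL13, PTGDR2 and IL1RL1, the last then read by 242809_at, with a median of 0, and ILC3 and TH17 had 0.065. At the 75th percentile as threshold the latter had 0.13, and other cytokines and chemokines -0.08. Without those suffixes 0 probe sets were at least 2-fold higher, since those of HPGD all carry them. That count was also 0 above the level threshold, and 5 at a 1.5-fold limit. Detectable genes numbered 2 without those probe sets (IL1RL1 and PTGDR2) or at the 99th percentile of the panel (IL1RL1 and IL17RB), and 3 with the median of all probe sets or the mean of both arrays. Median and mean centring, lowess and quantile normalisation moved no difference of the 18 probe sets by more than 0.05. The deposited values were already quantile normalised, so these settings could move little by construction. Their values are among the 187. No paired analysis was possible because each group had 1 array. Where signals lie below the detection limit, neither presence nor change of a transcript can be read from 2 arrays.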
